A study of Danio rerio with 94 samples.

Results

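Gene expression was compared between 4 pools of zebrafish embryos exposed to 2-ethylnaphthalene and 5 vehicle control pools, out of 93 pools in all. The pools were chosen here by their labels: every pool titled with the chemical, against every control pool that has a column in the deposited table. Before that, the authors had removed 1 control pool of day 1, which their principal component analysis of expression marked as an outlier. The study set out how the position and size of alkyl groups on naphthalene, a petroleum hydrocarbon of fused aromatic rings, relate to developmental toxicity, and 22 such chemicals were profiled with a targeted panel of 3068 genes. Each embryo pool was 1 library, and 11 chemicals were run on each of 2 exposure days.

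All embryos were wild type zebrafish of the 5D line and were used whole. The exposed pools received 2-ethylnaphthalene, a naphthalene with a single ethyl group, at 20 µM in DMSO from 6 to 24 hours post fertilisation (hpf), in glass vials of 8 embryos in 2 mL, and were then kept without the chemical until collection at 48 hpf, on exposure day 2. The control pools received DMSO alone under the same handling, with 2 pools from day 1 and 3 from day 2. A pool held 6 embryos of normal appearance, so embryos that were visibly affected did not enter either group, and 1 concentration and 1 time were measured. The paper formed pools by vial group, but its counts do not settle whether each pool had a vial of its own. Whole embryos mix every tissue, and a change may come from any of them. The further groups used are naphthalene itself and 2-butylnaphthalene, both of day 2, and 1-ethylnaphthalene of day 1, with 4 pools each at the same concentration and times.

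Much of what follows concerns genes that answer to glucocorticoids. Cortisol, the main glucocorticoid of fish, binds the glucocorticoid receptor, which is held in the cytosol by HSP90 and co-chaperones, then enters the nucleus and switches genes on or off. Among the genes it induces in vertebrates are fkbp5, whose product is a co-chaperone that lowers the affinity of the receptor for its hormone, and klf9, a transcription factor of the Kruppel-like family. The enzyme encoded by hsd11b2 inactivates cortisol by turning it into cortisone. Aromatic hydrocarbons are better known for acting through the aryl hydrocarbon receptor, whose usual readout is cyp1a, and its response was therefore read beside that of the glucocorticoid receptor.

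The 2-ethylnaphthalene libraries held 8449523 to 13605438 reads and the control libraries 8143235 to 12695269, within the 7210366 to 16538138 of all 93. Reads here and below are counts after the authors' adjustment for exposure day, not the reads as sequenced. Between 327 and 390 genes had no reads in a 2-ethylnaphthalene library and between 362 and 457 in a control library, and 131 genes had none in any of the 9. Genes without reads numbered 454 and 457 in the control libraries of day 1 and 362 to 381 in those of day 2. Values are log2 CPM, read counts scaled to library size as the authors normalised them, on which a gene without reads stands at -2.39, and a change is the 2-ethylnaphthalene mean minus the control mean (log2FC). On this scale the median over the 3068 genes was -0.0038, with 1548 genes below and 1389 above their control mean. The 95% interval of a log2FC reached 0.666 to either side of it for the median gene, and was narrower for genes whose pools lay close together.

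Few genes passed the test, and with all pools kept most of them were lower with 2-ethylnaphthalene. Of the 3068 genes, 21 were called, meaning that limma's p after Benjamini-Hochberg adjustment did not exceed 0.05, whatever the size of the change. They are 0.684% of the panel. Of these, 17 were lower (0.554%) and 4 were higher (0.13%). A log2FC of at least 1 in either direction was reached by 7 of them (0.228%), termed differentially expressed genes (DEGs): fgfbp2b, klf11a, ndufa4, ktn1, cdx1b and klf9 were lower and ctss2.1 was higher. The ranges of the groups did not overlap for 20 of the 21 called genes, the exception being cdx1b, beside 3.59% of all genes. The 21 were chosen by the difference between these same pools, which favours groups that are apart, so this adds no support to the calls. At an unadjusted p below 0.05 there were 304 genes, 166 lower and 138 higher, where 5% of the panel is 153. The excess of lower calls depended on exposed pool A: without it, 10 genes were called lower and 10 higher.

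**Figure D1:**
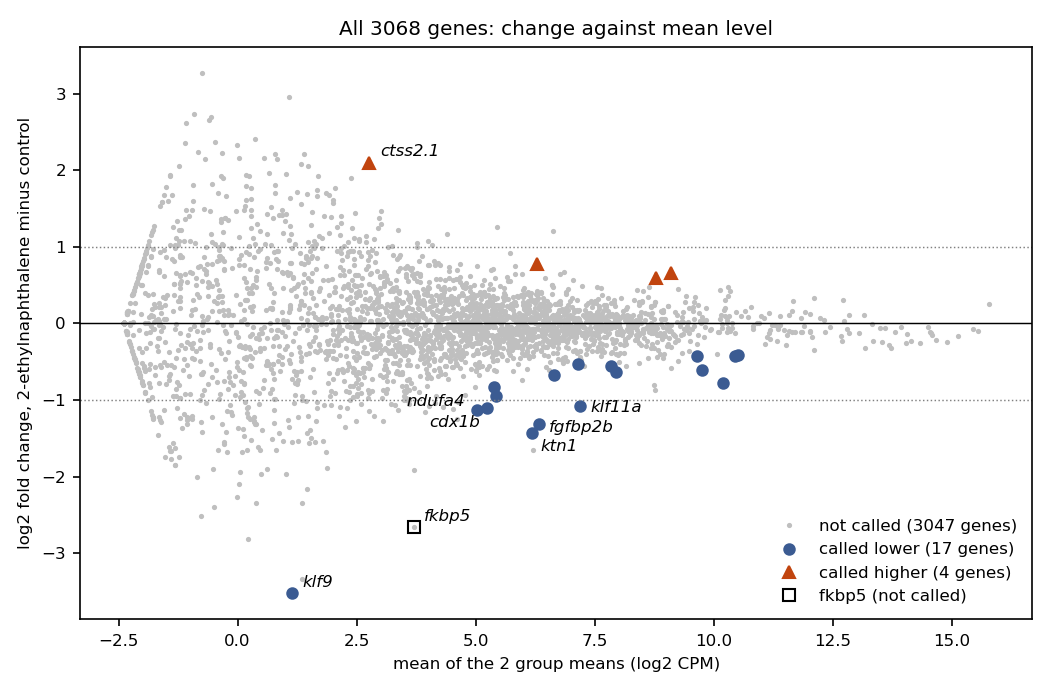
Log2 fold change (2-ethylnaphthalene minus control, vertical axis) against the mean of the group means in log2 CPM (horizontal axis) for the 3068 genes, 1 point per gene. The 17 genes called lower (blue circles) and the 4 called higher (orange triangles) lie mostly at levels above 5 log2 CPM, klf9 and ctss2.1 below that, and fkbp5 (open square) was not called. Dotted lines mark a log2FC of 1 in either direction.

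The call with the smallest p was fgfbp2b, an FGF-binding protein of a secreted family that releases fibroblast growth factors from the extracellular matrix. Its levels were 5.57, 5.62, 5.87 and 5.63 log2 CPM in the 2-ethylnaphthalene pools, against 7.32, 7.17, 6.98, 6.70 and 6.76 in the control pools. The exposed pools lay close together and all were under every control pool. The log2FC was -1.31 (standard error 0.21, adjusted p = 0.00011), a 2.48-fold lower level. It was called under every alternative setting tried, and ano9a was the only other gene of which that held. Of the 18 measured genes of FGF signalling it was the only one called, beside 0.684% of all genes. The next smallest p in that list belonged to fgf8a, a ligand of the isthmus and other signalling centres, with a log2FC of 0.85 (adjusted p = 0.380).

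Both called Kruppel-like factors were lower. For klf11a the exposed pools stood at 6.04, 6.74, 7.03 and 6.81 log2 CPM, against 7.76, 7.65, 7.80, 7.71 and 7.73 in the controls. The 5 control pools were tight (SD 0.056) and the 4 exposed pools spread more widely (SD 0.43), with pool A lowest, and there was no overlap. The log2FC was -1.07 (standard error 0.20, adjusted p = 0.0017).

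Klf9 had the largest change of the called genes, at a low level. Its values were 0.05, -1.92, -1.14 and 0.52 log2 CPM with 2-ethylnaphthalene, against 2.76, 3.71, 3.03, 3.62 and 1.37 in the controls. In reads this was 9, 1, 3 and 11 in the exposed libraries, against 55, 115, 83, 103 and 29 in the control libraries. All exposed pools were below all control pools, and control pool C of day 2 came nearest to them. The log2FC of -3.52 (standard error 0.88, adjusted p = 0.025) rests on these few reads and depends on the constant added before the logarithm: it was -2.45 with log2(CPM + 1) and -1.35 with log2(CPM + 4), still called in both. The call was lost without exposed pool B or C, without control pool C of day 1 or A or B of day 2, and with the controls of day 2 alone (adjusted p = 0.158). It was also lost with only these groups fitted (adjusted p = 0.102). The other measured members of the family, klf11b and klf6a, had log2FCs of -0.82 (adjusted p = 0.773) and -0.06 (adjusted p = 0.926).

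**Figure D2:**
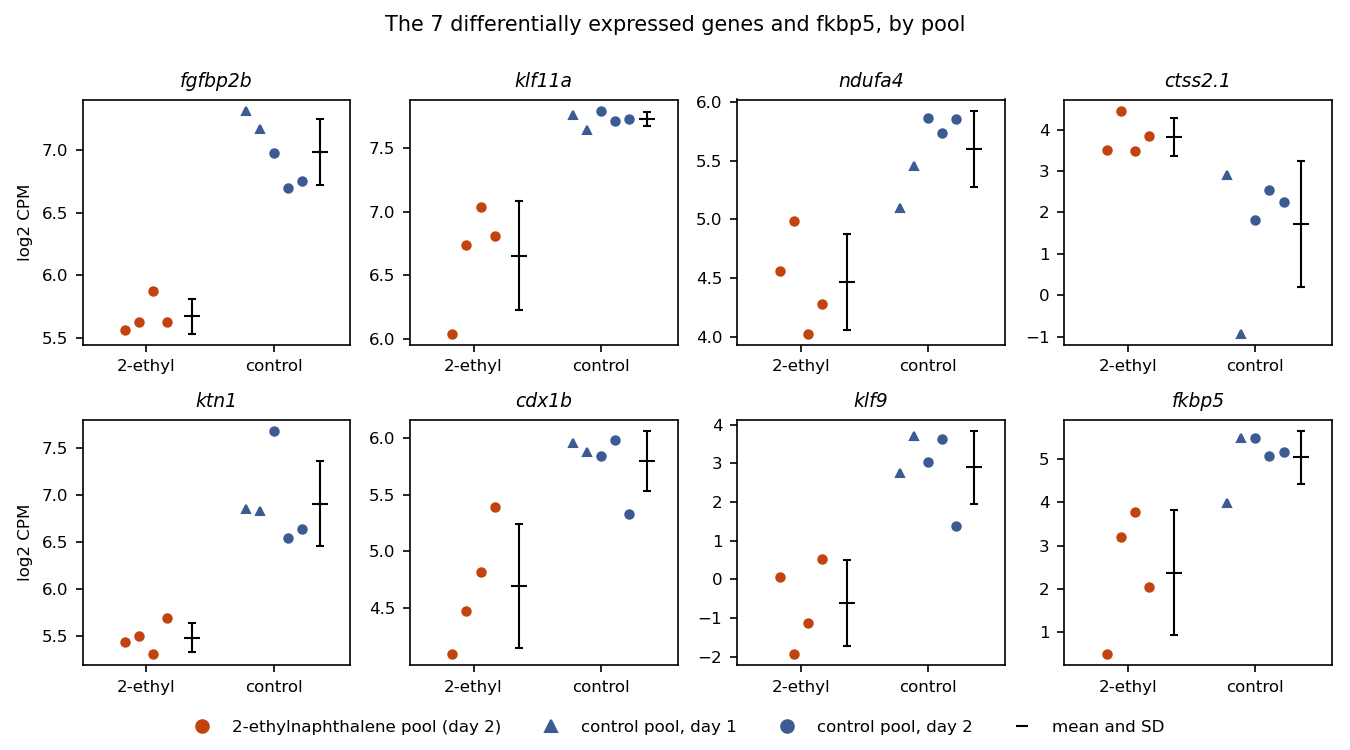
Level in log2 CPM (vertical axis, scaled per gene) of the 7 DEGs and fkbp5 in each 2-ethylnaphthalene pool (orange) and each control pool (blue, triangles for day 1 and circles for day 2), with the mean and SD of each group beside its points. The groups are apart for every gene shown except cdx1b, where exposed pool D at 5.39 lies above control pool C of day 2 at 5.33.

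Fkbp5, the gene of the receptor's co-chaperone, was not called. Its levels were 0.50, 3.19, 3.76 and 2.05 log2 CPM with 2-ethylnaphthalene, against 3.99, 5.48, 5.48, 5.07 and 5.15 in the controls. The groups did not overlap, but the exposed pools spread widely (SD 1.44), with pool A lowest. The reads were 13, 122, 152 and 35 in the exposed libraries, against 131, 395, 463, 285 and 428 in the control libraries. The log2FC was -2.66 (standard error 0.91, 95% interval -4.47 to -0.84), and the adjusted p was 0.175. With weights for the precision of each value (voom) the gene was called (adjusted p = 0.0275), as it was on log2(CPM + 4) (adjusted p = 0.00345). Over its 18 alternatives the adjusted p lay between 0.00345 and 0.602, highest without exposed pool A.

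Of 20 measured genes known to respond to or act on the glucocorticoid receptor, 5 were called and all 5 were lower, beside 0.554% of all genes: klf11a, bcl6aa, hsd11b2, klf9 and foxo3b. The median log2FC of the list was -0.56, beside -0.0038 over all genes. In it 14 genes were below their control mean and 4 above, and per1a and nr3c2 had no reads in any of the 9 pools. The list was put together with earlier results of these data known, so its count is not independent evidence of a direction.

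Bcl6aa, a transcriptional repressor of the BCL6 family, had 5.05, 4.92, 5.00 and 4.87 log2 CPM in exposed pools, against 6.10, 6.20, 5.59, 6.03 and 5.62 in control pools. The exposed pools nearly coincided, and the lowest controls were of day 2. Its log2FC was -0.95 (standard error 0.19, adjusted p = 0.0023). With the controls of day 2 alone, and with only these groups fitted, it was no longer called.

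Hsd11b2, the enzyme that inactivates cortisol, stood at 7.13, 7.85, 7.92 and 7.62 log2 CPM with 2-ethylnaphthalene, against 8.12, 8.35, 7.98, 8.37 and 8.47 in controls. Exposed pools B and C came near the lowest control pool, and pool A was well below the rest. The log2FC was -0.63 (standard error 0.14, adjusted p = 0.0062), and the call was lost without exposed pool A and with only these groups fitted.

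Foxo3b, a forkhead transcription factor active in stress and catabolic states, had 7.66, 7.54, 7.52 and 7.58 log2 CPM with 2-ethylnaphthalene, against 8.27, 8.50, 8.13, 7.89 and 7.81 in controls. The control pools of day 1 were the highest, and the groups did not overlap. Its log2FC of -0.55 (standard error 0.14, adjusted p = 0.036) was the weakest of these calls: it was lost under 11 of 18 alternatives, including the removal of any single exposed pool and of any control pool other than day 2 B or C.

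Other members of the list did not pass. Tsc22d3, which encodes the glucocorticoid-induced leucine zipper protein, had a log2FC of -1.08 (adjusted p = 0.286). Dusp1, a phosphatase of MAP kinases, had -0.51 (adjusted p = 0.315) and cebpd, a transcription factor of the acute phase response, -0.82 (adjusted p = 0.242). In the opposite direction, cebpb of the same family had 1.22 (adjusted p = 0.476).

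The receptor gene itself, nr3c1, had 5.10, 5.52, 5.30 and 5.06 log2 CPM with 2-ethylnaphthalene, against 4.96, 4.59, 5.39, 4.99 and 5.62 in controls. These ranges overlapped throughout, with a log2FC of 0.13 (95% interval -0.59 to 0.86, adjusted p = 0.986). None of the 8 measured genes of the stress axis and steroid synthesis was called, where 0.684% of all genes were. Among them was pomca, the precursor of ACTH, with a log2FC of -0.25 (adjusted p = 0.992). Among 9 FKBP immunophilins and HSP90 partners none was called either, and fkbp4, another co-chaperone of steroid receptors, had a log2FC of 0.07 (adjusted p = 0.964). At that share such short lists would rarely hold a call, so its absence says little about them.

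**Figure D3:**
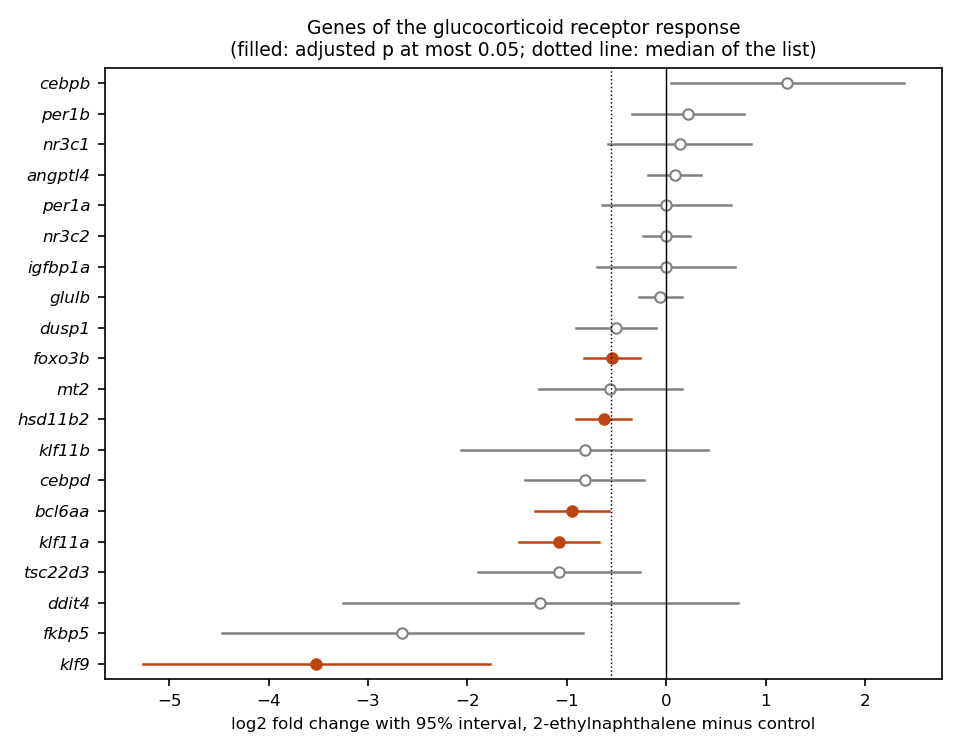
Log2 fold change (2-ethylnaphthalene minus control, horizontal axis) with its 95% interval for the 20 measured genes of the glucocorticoid receptor response, ordered by change. Filled orange points mark the 5 called genes, all lower, the dotted line is the median of the list at -0.56, and klf9, fkbp5 and ddit4 have the widest intervals.

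The aryl hydrocarbon receptor response gave no call among 16 measured genes (median log2FC -0.05), where 0.684% of all genes were called. Cyp1a, its usual readout, had 1.76, 2.78, -0.48 and 2.05 log2 CPM with 2-ethylnaphthalene, against -2.39, 1.35, 0.08, 3.17 and 2.86 in controls. The groups overlapped fully and the controls alone ran from no reads to the highest value of all, so that the 95% interval of the log2FC of 0.51 was wide (-1.31 to 2.33, adjusted p = 0.951). Cyp1b1 was at 3.44, 4.19, 3.94 and 3.42 with 2-ethylnaphthalene, against 2.99, 3.58, 3.68, 0.88 and 2.52 in controls. Its log2FC was 1.02 (adjusted p = 0.331), with control pool B of day 2 apart from the rest. Cyp1c1 and cyp1c2, enzymes of the same family, had log2FCs of -0.72 (adjusted p = 0.572) and 0.38 (adjusted p = 0.897). No call was made among 21 other cytochrome P450 genes or 31 genes of conjugation and transport of xenobiotics. Any change of the cyp1a level within its 95% interval remained compatible with these pools.

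The remaining DEGs belong to other processes. Ndufa4, a small protein of the inner mitochondrial membrane that associates with cytochrome c oxidase, had 4.56, 4.99, 4.03 and 4.28 log2 CPM with 2-ethylnaphthalene, against 5.10, 5.46, 5.86, 5.73 and 5.85 in controls. Exposed pool B lay just below control pool A of day 1, the lowest of the controls. The log2FC was -1.13 (standard error 0.25, adjusted p = 0.0062). Of 34 genes of the respiratory chain and mitochondrial ribosome, a list that does not hold ndufa4, none was called, beside 0.684% of all genes. The smallest p in it belonged to cox6b1, a cytochrome c oxidase subunit, with a log2FC of -0.79 (adjusted p = 0.106).

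Ktn1 encodes kinectin, a membrane protein of the endoplasmic reticulum that binds the motor kinesin. It stood at 5.44, 5.50, 5.31 and 5.69 log2 CPM with 2-ethylnaphthalene, against 6.85, 6.83, 7.68, 6.54 and 6.64 in controls. The exposed pools were close together and control pool A of day 2 was above the other controls. The log2FC of -1.42 (standard error 0.32, adjusted p = 0.0062) was not called without that control pool, where it was -1.23 (adjusted p = 0.058). The call was also lost with only these groups fitted.

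Cdx1b, a caudal-type homeobox factor of the developing intestine, had 4.099, 4.47, 4.82 and 5.39 log2 CPM with 2-ethylnaphthalene, against 5.95, 5.87, 5.84, 5.98 and 5.33 in controls. Exposed pool D and control pool C of day 2 overlapped and the other pools were apart. The log2FC was -1.10 (standard error 0.25, adjusted p = 0.0080). The call was lost without exposed pool A, with the controls of day 2 alone and with only these groups fitted. Of 23 measured liver, pancreas and gut genes it was the only one called, beside 0.684% of all genes. Prss1, a trypsinogen of the exocrine pancreas, had a log2FC of -2.35 (adjusted p = 0.220). The summed level of the list was 2743 to 4518 CPM in exposed pools and 3583 to 5476 CPM in controls, which overlap.

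Ctss2.1, of the cathepsin S family of lysosomal cysteine proteases, was the only DEG that was higher. Its levels were 3.498, 4.46, 3.47 and 3.85 log2 CPM with 2-ethylnaphthalene, against 2.90, -0.92, 1.83, 2.54 and 2.24 in controls. All exposed pools were above all controls, and control pool C of day 1, with 3 reads, was far below the others. The log2FC was 2.101 (standard error 0.46, adjusted p = 0.0062). Without that pool it was 1.44 and not called (adjusted p = 0.114), and it was not called with the controls of day 2 alone or with voom (adjusted p = 0.0501). The call was also lost with only these groups fitted. Of 19 lysosomal genes it was the only one called, beside 0.684% of all genes.

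A further 14 genes were called with a log2FC of less than 1 in size. Of these, 3 were higher, each with all 4 exposed pools above all 5 controls. Ano9a, of the anoctamin family of membrane proteins, had 9.47, 9.43, 9.34 and 9.45 log2 CPM with 2-ethylnaphthalene, against 8.77, 8.61, 8.80, 8.95 and 8.70 in controls, a log2FC of 0.65 (standard error 0.13, adjusted p = 0.0020). Cldn5a, a claudin of the tight junctions that seal the neural tube and brain ventricles in zebrafish, had 6.75, 6.92, 6.46 and 6.59 log2 CPM with 2-ethylnaphthalene, against 5.92, 5.72, 5.79, 6.30 and 5.76 in controls, a log2FC of 0.78 (standard error 0.17, adjusted p = 0.0062). Hist1h2a5, a histone H2A gene, lay between 9.01 and 9.21 with 2-ethylnaphthalene and between 8.29 and 8.72 in controls, with a log2FC of 0.59 (adjusted p = 0.011). Histone genes come in many near-identical copies, so which copy the probe reads is uncertain.

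The other 11 were lower. Fabp11b, a fatty acid binding protein, had 9.70, 10.18, 9.92 and 9.47 log2 CPM with 2-ethylnaphthalene, against 10.72, 10.201, 10.41, 10.69 and 10.94 in controls. Exposed pool B and control pool C of day 1 nearly met. The log2FC was -0.78 (standard error 0.16, adjusted p = 0.0029). Fabp11b was the only call among 55 genes of sterol, fatty acid and bile metabolism, beside 0.684% of all genes.

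Ldha, lactate dehydrogenase of anaerobic glycolysis, differed little in size but its exposed pools were tight. Its levels were 10.26, 10.24, 10.26 and 10.203 log2 CPM with 2-ethylnaphthalene, against 10.60, 10.53, 10.63, 10.84 and 10.75 in controls. The gap between the groups was larger than the spread within the exposed pools (SD 0.028). The control pools spread more widely (SD 0.12). The log2FC of ldha was -0.43 (standard error 0.10, adjusted p = 0.012). Its call was lost under 3 of 18 alternatives: median centring, leaving out control pool B of day 2, and fitting only these groups. Pkmb, a pyruvate kinase, and aldoaa, an aldolase, did not pass, with log2FCs of -0.87 (adjusted p = 0.0587) and -0.40 (adjusted p = 0.0806). The groups did not overlap in either, beside 3.59% of all genes, and genes with small p-values are likelier to be apart. For aldoaa, exposed pool C and control pool C of day 2 almost met. In the whole list of 31 genes of hypoxia, glycolysis and glucose transport the median log2FC was -0.06. Only ldha was called, beside 0.684% of all genes.

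Pde6gb, a gamma subunit of the photoreceptor phosphodiesterase, had 9.24, 9.48, 9.65 and 9.49 log2 CPM with 2-ethylnaphthalene, against 10.12, 10.17, 10.03, 10.09 and 9.92 in controls, with no overlap. The log2FC was -0.60 (standard error 0.12, adjusted p = 0.0030). The list of photoreceptor, retina and lens markers does not hold pde6gb. Its 14 measured genes summed to 1200 to 1537 CPM in exposed pools and 1654 to 1998 CPM in control pools. It was the only cell type list whose summed levels did not overlap, and such a sum is weighted towards its highest genes. The highest gene of that list, vsx1, a homeobox factor of retinal progenitors and bipolar cells, had a log2FC of -0.45 (adjusted p = 0.180). In the list 8 genes were below and 5 above their control mean, and opn1sw1 had no reads in any of the 9 pools. None was called, beside 0.684% of all genes. The groups did not overlap for 1 of the 14 genes taken singly, beside 3.59% of all genes. In whole embryos fewer cells of a type and less RNA per cell cannot be told apart, and the part of these markers in the pde6gb result was not tested.

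Mapta, the microtubule-associated protein tau, was the only call among 30 markers of neurons and glia, beside 0.684% of all genes. Its levels were 9.64, 9.24, 9.41 and 9.44 log2 CPM in exposed pools, against 9.88, 9.88, 9.85, 9.78 and 9.91 in controls. The controls were tight, and no exposed pool reached them. The log2FC was -0.43 (standard error 0.10, adjusted p = 0.014), while the summed level of the neuron and glia list was 3432 to 3972 CPM in exposed pools and 3864 to 4032 CPM in controls, which overlap.

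The other genes called lower were sox4a, kctd9a, s100a11 and nt5dc2. Sox4a, a SOX transcription factor of progenitor cells, lay between 10.26 and 10.35 log2 CPM with 2-ethylnaphthalene and between 10.55 and 10.88 in controls, with a log2FC of -0.42 (adjusted p = 0.012). Kctd9a, which has a potassium channel tetramerisation domain, lay between 5.99 and 6.50 with 2-ethylnaphthalene and between 6.91 and 7.08 in controls, with a log2FC of -0.68 (adjusted p = 0.0062). No exposed pool of either gene reached a control pool.

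S100a11, a calcium-binding protein, lay between 4.27 and 5.34 log2 CPM with 2-ethylnaphthalene and between 5.37 and 6.08 in controls, with a log2FC of -0.84 (adjusted p = 0.028). Nt5dc2, which has a 5'-nucleotidase domain, had 6.44, 7.06, 6.98 and 7.08 with 2-ethylnaphthalene, against 7.63, 7.23, 7.66, 7.44 and 7.14 in controls, with a log2FC of -0.53 (adjusted p = 0.036). For both, the nearest exposed and control pools almost met, and each call was lost under 7 of 18 alternatives. Nt5e, the extracellular 5'-nucleotidase, had 9, 13, 2 and 0 reads with 2-ethylnaphthalene, against 31 reads in control pool B of day 2 and none in the other controls, and was not called (adjusted p = 0.947).

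**Figure D4:**
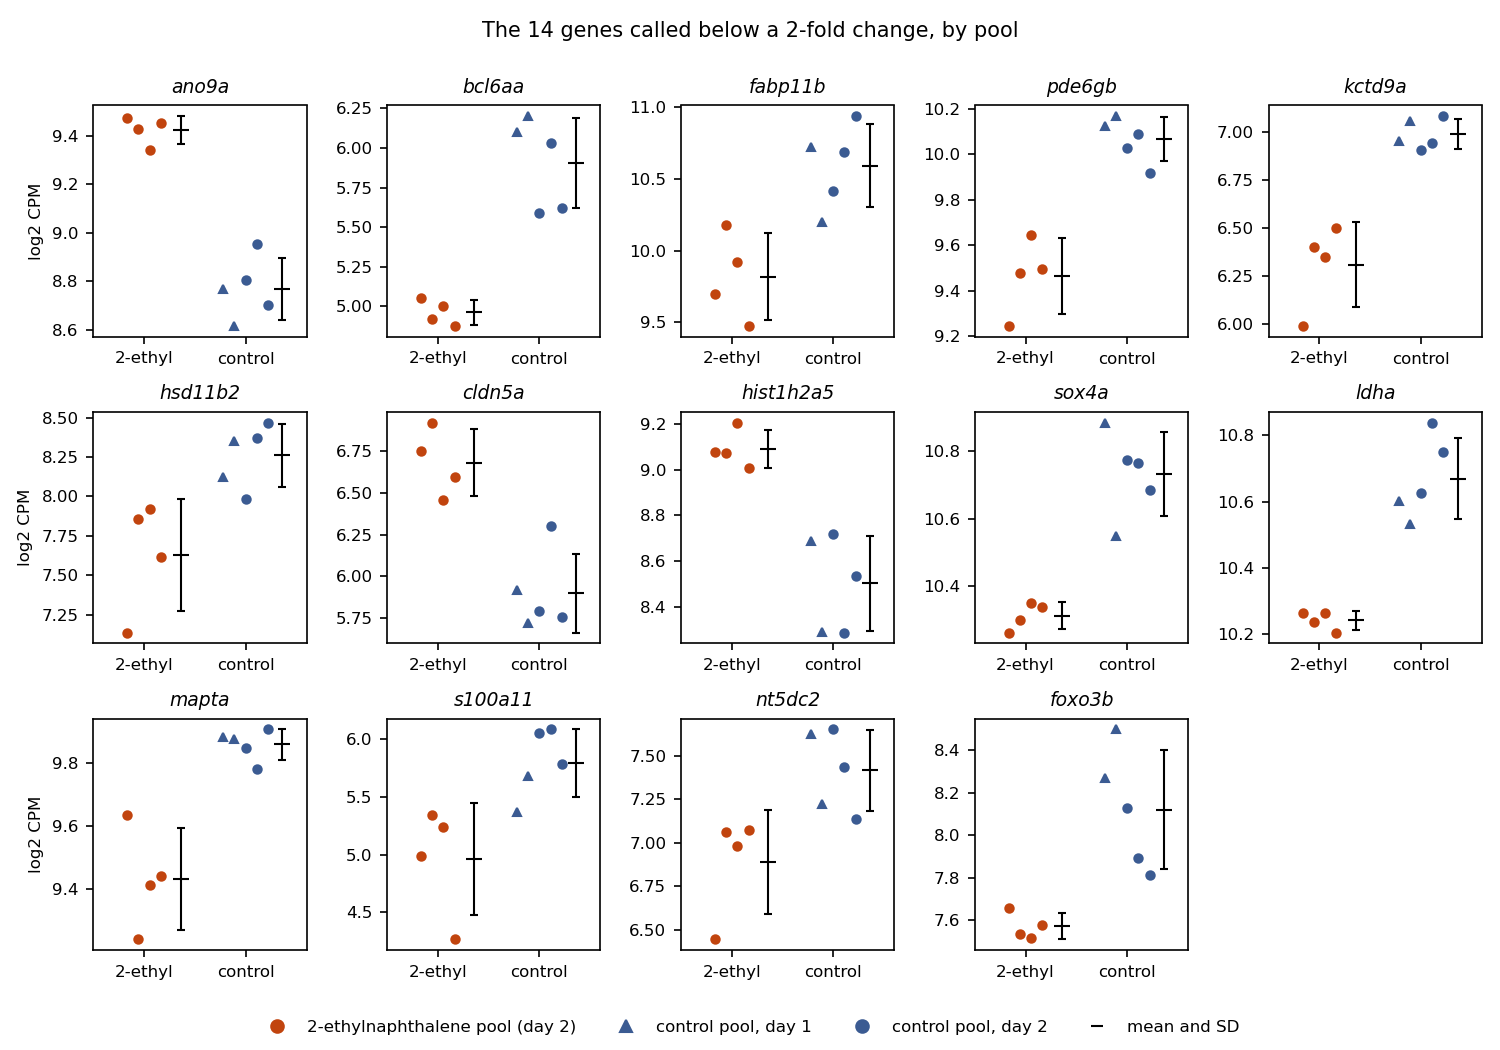
Level in log2 CPM (vertical axis, scaled per gene) of the 14 genes called with a log2FC below 1 in size, in each 2-ethylnaphthalene pool (orange) and each control pool (blue, triangles for day 1 and circles for day 2), with the mean and SD of each group. No exposed pool falls within the range of the controls in any panel, and the gap is narrow for fabp11b, s100a11, hsd11b2 and nt5dc2.

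Many sets of genes gave no call. With 0.684% of all genes called, a list of this size would hold few calls or none at that share. No call or a single call therefore says little about a list. Of 67 measured cell cycle and replication genes 49 were above and 17 below their control mean, with a median log2FC of 0.17, where over all 3068 genes 1389 were above and 1548 below with a median of -0.0038. The smallest p in that list belonged to a gene below control, rrm2, a ribonucleotide reductase subunit, with a log2FC of -0.80 (adjusted p = 0.294). Of 26 heat shock proteins and chaperones 18 were above and 8 below control, with a median of 0.12, and the smallest p-values belonged to hspe1, a mitochondrial chaperonin, at 0.65 (adjusted p = 0.106), and clu, a secreted chaperone, at 0.76 (adjusted p = 0.141). The circadian clock had no call among 16 genes: nr1d1, a repressor of the clock, had a log2FC of -1.20 (adjusted p = 0.590) and per2, a light-induced clock gene, 0.29 (adjusted p = 0.964). No gene was called among 30 of the oxidative stress response, 20 of endoplasmic reticulum stress, 48 of collagen, cartilage and extracellular matrix, 9 of Hedgehog signalling, 10 of folate and one-carbon metabolism, 50 of immune cells and inflammation, 38 of ubiquitin and proteasome or 21 immediate early genes. Foxo3b was the only call among 38 genes of DNA damage, p53 and apoptosis.

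Among the other cell type lists, all 6 measured erythrocyte genes were below their control mean and none was called, beside 0.684% of all genes. Their summed level was 134 to 281 CPM with 2-ethylnaphthalene and 217 to 417 CPM in controls, which overlap, and hbae3, an embryonic alpha globin, had a log2FC of -0.36 (adjusted p = 0.773). Skeletal muscle, heart, endothelium, skin with notochord and hatching gland, and kidney with ionocytes also overlapped in summed level.

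These calls rest on a spread estimated over all 23 groups and on 5 control pools that serve every chemical. Fitted with the 9 pools alone, limma called 3 genes, 1 lower and 2 higher, and 2 of them were among the 21. With the 3 controls of day 2 alone it called 9 of the 21. Each of the 21 kept its direction under every alternative it was run in, klf9 having been removed by the filter on low levels. For the 20 whose groups did not overlap, leaving out pools or changing the added constant could not reverse it. The kept direction therefore adds little.

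The level of the called genes across the other 21 chemicals places these differences. For fgfbp2b the means of the other chemicals lay between 5.27 (1,7-dimethylnaphthalene) and 6.59 (2,6-diisopropylnaphthalene), with 2-ethylnaphthalene at 5.67 and control at 6.98. For klf11a they lay between 6.47 (2-butylnaphthalene) and 7.15 (2,7-di-tert-butylnaphthalene), with 2-ethylnaphthalene at 6.65 and control at 7.73. For fkbp5 they lay between -0.16 (1,7-dimethylnaphthalene) and 4.02 (naphthalene), with 2-ethylnaphthalene at 2.38, above 13 of the other 21, and control at 5.03. The 2-ethylnaphthalene mean was the lowest of all 23 group means for 5 of the 21 genes (kctd9a, ktn1, cdx1b, ldha and s100a11), and for 293 of all 3068 genes. The control mean was the highest or lowest of the 23 for 15 of the 21 genes, beside 15.6% of all genes. For 15 of the 21, all 21 other chemicals lay on the same side of control as 2-ethylnaphthalene, beside 281 of all 3068 genes. For none of the 21 genes were there fewer than 17 such chemicals. The 21 genes were chosen by the difference between these exposed pools and these 5 control pools, which favours means at the ends of the range, so the positions are a description and were not tested.

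Direct comparison of 2-ethylnaphthalene with related chemicals called few genes. Each of 3 pairs was tested over all genes, with p-values adjusted over the 3 pairs together. The 95% interval of a log2FC reached 0.702 to either side of it for the median gene. The lack of a call therefore leaves room for differences of that size. Against naphthalene, which lacks the ethyl group, 2 genes were called (0.0652%). Pkmb had 8.36, 8.40, 8.20 and 8.37 log2 CPM with 2-ethylnaphthalene, against 9.56, 9.74, 9.00 and 9.55 with naphthalene, a log2FC of -1.13 (95% interval -1.63 to -0.63, adjusted p = 0.0229). Cldn5a had 6.75, 6.92, 6.46 and 6.59 with 2-ethylnaphthalene, against 6.04, 5.87, 5.55 and 6.00 with naphthalene, a log2FC of 0.81 (95% interval 0.45 to 1.17, adjusted p = 0.0229). Both pairs of groups were apart, and control pools ranged from 8.70 to 9.59 for pkmb and from 5.72 to 6.30 for cldn5a. Cldn5a was thus the only one of the 21 genes also called against naphthalene. All 21 kept the direction of the control comparison, and 16 had an unadjusted p below 0.05 in limma, beside 231 of all 3068 genes. The same exposed pools chose the 21 genes and enter this comparison, which favours the same direction and small p-values. These counts are therefore not independent evidence. The pkmb call was lost under 6 of 16 alternatives (without naphthalene pool A, B or D, without exposed pool A or C, and with only these groups fitted), and the cldn5a call under 5 of 16 (without naphthalene pool B or C, without exposed pool A or B, and with only these groups fitted).

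Klf9 and fkbp5 did not pass against naphthalene. Klf9 had a log2FC of -2.82 (95% interval -4.66 to -0.98, adjusted p = 0.293) and fkbp5 -1.64 (95% interval -3.55 to 0.27, adjusted p = 0.790). The intervals leave room for large differences.

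Against 2-butylnaphthalene, which carries a longer chain at the same place on the ring, 9 genes were called (0.293%), none of them among the 21. Of the 21, 19 kept the direction of the control comparison, and 7 had an unadjusted p below 0.05 in limma, beside 271 of all 3068 genes. Here too the exposed pools that chose the 21 genes favour such counts. Ube2g1a, a ubiquitin-conjugating enzyme, had 6.75, 6.86, 6.68 and 6.68 log2 CPM with 2-ethylnaphthalene, against 8.19, 7.75, 8.06 and 8.36 with 2-butylnaphthalene, a log2FC of -1.35 (adjusted p = 0.0199). Csnk1a1, a casein kinase of Wnt signalling, had 7.83, 8.32, 7.74 and 7.90 with 2-ethylnaphthalene, against 9.18, 8.81, 8.78 and 9.09 with 2-butylnaphthalene, a log2FC of -1.01 (adjusted p = 0.0199). In both genes the 2-ethylnaphthalene pools lay near the controls, which ranged from 6.69 to 7.32 for ube2g1a and from 7.78 to 8.09 for csnk1a1.

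The other genes lower with 2-ethylnaphthalene than with 2-butylnaphthalene were nucb2a (log2FC -0.96), a precursor of the peptide nesfatin, rpl15 (-0.77) and rpl24 (-0.49) of the large ribosomal subunit, c5 (-0.74), a complement component, and sptan1 (-0.64), a spectrin. Rpl13a, also of the large ribosomal subunit (log2FC 0.53), and ccnb1, cyclin B1 (0.77), were higher. Against naphthalene all 9 genes had the same direction, though none was called. There the lower genes ran from -0.92 (ube2g1a) to -0.22 (rpl24), with rpl13a at 0.42 and ccnb1 at 0.57. The same exposed pools enter both comparisons, and a link to chain length was not tested. The count of 9 became 0 without exposed pool A or 2-butylnaphthalene pool A, 1 without 2-butylnaphthalene pool E, 2 without exposed pool C, and 0 when only these groups were fitted. For klf11a and klf9 the differences from 2-butylnaphthalene were 0.19 (95% interval -0.24 to 0.61) and -0.52 (95% interval -2.36 to 1.32).

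Against 1-ethylnaphthalene, with the ethyl group at the other kind of ring position, 2 genes were called (0.0652%), but these pools were exposed on day 1, so that day and structure cannot be told apart. All 21 genes called against control kept their direction here, and 13 had an unadjusted p below 0.05 in limma, beside 158 of all 3068 genes. Again the exposed pools that chose the 21 genes favour such counts. Fosab, an immediate early gene of the AP-1 factor, had 5.78, 5.49, 5.69 and 5.65 log2 CPM with 2-ethylnaphthalene, against 2.76, 3.71, 3.08 and 3.35 with 1-ethylnaphthalene. The groups were far apart, with a log2FC of 2.43 (95% interval 1.46 to 3.39, adjusted p = 0.0099). Without exposed pool A it just missed the threshold (adjusted p = 0.0522). Against control fosab had a log2FC of 0.17 (adjusted p = 0.986), and its controls stood at 4.66 and 5.44 on day 1 and at 6.14, 5.99 and 5.19 on day 2. Slc5a3a, a myo-inositol transporter, was called from very few reads: it had none in any 2-ethylnaphthalene pool or control pool, and its 1-ethylnaphthalene pools stood at -0.25, -1.91, -1.87 and -2.39 log2 CPM, the last also without reads. That call was lost under log2(CPM + 1), log2(CPM + 4), the variance trend, voom and a fit of these groups alone. For fgfbp2b the isomers differed by -0.80 (95% interval -1.25 to -0.36, adjusted p = 0.180) and for klf9 by -0.94 (95% interval -2.78 to 0.90, adjusted p = 0.918).

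**Figure D5:**
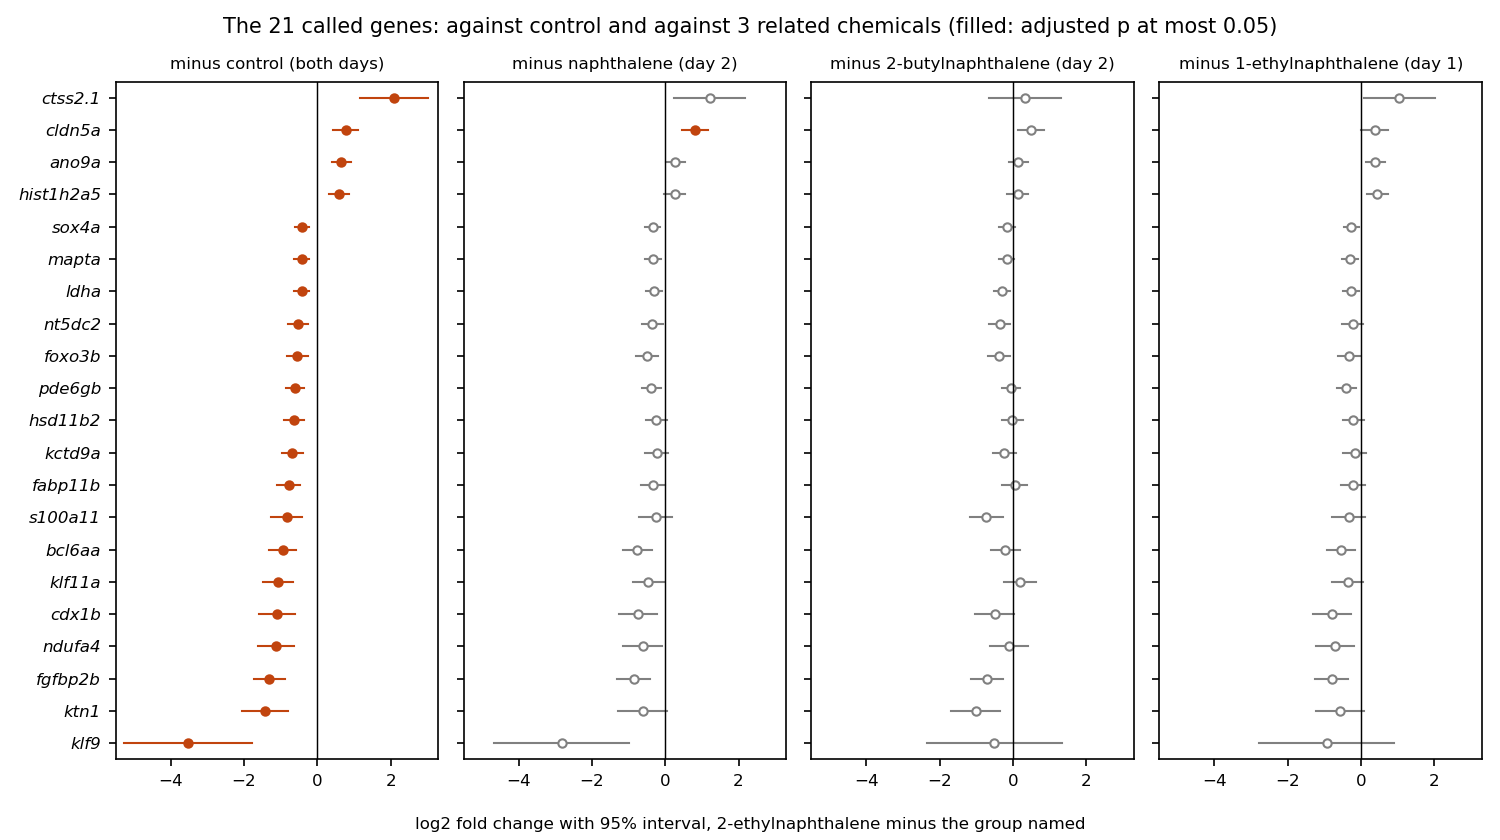
Log2 fold change with its 95% interval (horizontal axis) of the 21 called genes for 2-ethylnaphthalene minus control, minus naphthalene, minus 2-butylnaphthalene and minus 1-ethylnaphthalene, 1 panel each. Filled orange points passed an adjusted p of 0.05: all 21 against control, by which they were chosen, cldn5a alone against naphthalene, and none against the other two chemicals.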

How the data were processed

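Whole embryos were profiled with a targeted probe panel (TempO-Seq). The authors used TempO-SeqR for alignment and counting, added up a gene's probes, adjusted the counts for exposure day (ComBat_seq), scaled libraries by the upper quartile and deposited log2 CPM values of 3068 genes in 93 of 94 samples. 1 control pool of day 1 has no column, the authors having removed it as an outlier in expression. Their processing notes name the GRCz11 build. Whole counts could be recovered from 100% of values (tolerance 0.02 reads), which gave depths of 7210366 to 16538138 reads. These are counts after the adjustment for exposure day, so they differ from the reads as sequenced. The table of the authors' own comparisons (fold changes and p-values) was not used.

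Tables and figures were made with pandas 2.3.3, numpy 2.4.6 and matplotlib 3.10.9. limma 3.58.1 in R 4.3.3 (lmFit, eBayes) was fitted to the log2 values of 93 samples in 23 groups, without covariates or a further pseudocount. Benjamini-Hochberg adjustment ran over 3068 genes for the control comparison and jointly over the 3 pairs of chemicals. Named genes were all called genes, the 10 next by p, a short list of candidates, the genes called between chemicals and the 3 smallest p-values of each of 34 gene lists, and a few further list members were named after their values were seen. The members and lists were chosen with earlier results of these data known. The paper describes the pools as formed by vial group. Its counts of vials and pools do not settle whether each pool had a vial of its own. The p-values measure only the spread between pools. Counting error alone is small beside that spread except at few reads. The method was tested on simulated data, with changes placed only in genes with many reads and of a log2FC of at least 1 in size. Genes with few reads and smaller changes were not covered by that test. Alternatives were log2(CPM + 1), log2(CPM + 4), a minimum mean log2 level of 1 (2270 genes), median centring, a variance trend, voom on the recovered reads, the compared groups alone, controls of day 2 alone, a replicate block and each pool left out. A planned search for promoter motifs was not run, and no sequences were used here.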

Additional observations from a re-analysis of the deposited data

Results flagged for a closer look

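Over 51 named genes, each of the 102 groups of pools was searched for a single pool far from the rest of its group, by Dixon's 95% limit on the gap divided by the range. Chance flags about 1 in 20 groups where the pools have reads, and 12 were found in all. Among the called genes these were ctss2.1 in control pool C of day 1 (-0.92 log2 CPM, the other controls 1.83 to 2.90), ktn1 in control pool A of day 2 (7.68, the others 6.54 to 6.85), cdx1b in control pool C of day 2 (5.33, the others 5.84 to 5.98) and nt5dc2 in 2-ethylnaphthalene pool A (6.44, the others 6.98 to 7.08). The ctss2.1, ktn1 and nt5dc2 calls were lost without the pool concerned, and the cdx1b call was not.

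Among genes that were not called, 2-ethylnaphthalene pool B was far below its group for cyp1c1 (2.54, the others 4.04 to 4.21) and nr1d1 (0.19, the others 2.88 to 3.02), pool D was high for si:dkey-183i3.5 (9.02, the others 8.72 to 8.77), and pool C was the only one with reads for pik3c2a (0.21, the others at -2.39). In the controls, day 1 pool A was low for fkbp5 (3.99, the others 5.07 to 5.48) and day 1 pool C for gemin5 (2.59, the others 3.81 to 4.28). Day 2 pool C was the only control with reads for slc6a6b (-1.87) and day 2 pool B for nt5e (1.94), the others being at -2.39. A group with reads in a single pool, as for pik3c2a, slc6a6b and nt5e, is always flagged, so the chance rate does not apply to it.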

How the results depend on the processing

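The 21 genes called against control kept their direction under every alternative that could be run for them (klf9 was removed by the filter on low levels), and 2 of them, fgfbp2b and ano9a, were called in all. Leaving out pools or changing the added constant could not reverse the 20 whose groups did not overlap. Fitting only the groups compared gave 2 DEGs, 3 called genes (1 lower, 2 higher) against control, 0 called genes and 0 DEGs against 2-butylnaphthalene, 2 DEGs against naphthalene and 1 called gene against 1-ethylnaphthalene. Controls of day 2 alone gave 9 called genes (8 lower, 1 higher), median centring 11 lower, and the variance trend 7 higher. With voom 6 genes were called against naphthalene, 2 of them DEGs. Against 1-ethylnaphthalene 1 gene was called with log2(CPM + 1) and 4 each with log2(CPM + 4), the filter, the variance trend and voom. The letters of the pools did not pair them (correlation of deviations between -0.058 and 0.065 for same letters), and the replicate block kept 20 of the 21 calls, lost foxo3b and left 1 DEG against 2-butylnaphthalene. Leaving out each pool in turn gave 5 to 10 DEGs, 17 to 29 called genes, 10 to 21 lower (10 without exposed pool A) and 2 to 10 higher against control (2 without control pool C of day 1, 10 without exposed pool A or B). It gave 0 to 3 DEGs and 0 to 5 called genes against naphthalene (0 without exposed pool A, 5 without exposed pool D), 0 to 2 and 0 to 10 against 2-butylnaphthalene, and 0 to 3 and 1 to 5 against 1-ethylnaphthalene (1 without exposed pool A, 5 without exposed pool D). The causes were not tested. Genes near the floor, such as klf9, are limited by reads.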

Other observations

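Some genes had reads in exposed pools and nearly none in controls without passing the test. Snx24, a sorting nexin of endosomal membranes, had 12, 20, 30 and 1 reads with 2-ethylnaphthalene and none in the 5 control pools (adjusted p = 0.0587). Slc6a6b, a taurine transporter, had 2, 8, 38 and 28 reads with 2-ethylnaphthalene, against 1 read in control pool C of day 2 and none in the others (adjusted p = 0.0947). Snx24 was called with the variance trend, voom, the replicate block and without exposed pool D, and slc6a6b without exposed pool A.

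Isg20, an exonuclease of the interferon response, lay between 7.01 and 7.165 log2 CPM with 2-ethylnaphthalene and between 6.13 and 6.76 in controls, a log2FC of 0.64 that just missed the threshold (adjusted p = 0.0587). Gemin5, an RNA-binding protein of the SMN complex, lay between 4.50 and 5.65 with 2-ethylnaphthalene and between 2.59 and 4.28 in controls, a log2FC of 1.16 (adjusted p = 0.0913). Rpl13a, of the large ribosomal subunit, lay between 10.50 and 10.64 with 2-ethylnaphthalene and between 10.04 and 10.31 in controls, a log2FC of 0.42 (adjusted p = 0.0610). Aspn, an extracellular matrix proteoglycan, lay between 4.79 and 5.56 with 2-ethylnaphthalene and between 5.53 and 5.83 in controls, a log2FC of -0.61 (adjusted p = 0.0940). The groups did not overlap for isg20, gemin5 and rpl13a and overlapped for aspn, beside 3.59% of all genes without overlap. Genes with small p-values are likelier to be apart.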
